A study of Mus musculus with 2 samples.

Results

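Prox1, Sox18, Nr2f2, Maf and Tbx1 are transcription factors of the lymphatic endothelium, and their RNA was read in endothelial cells sorted from mouse skin tumors. The 5 genes were taken by symbol from the 32285 genes of the deposited count tables. They are described in 673 Cre plus and 178 Cre minus barcodes gated as lymphatic endothelial (LEC), and in 170 Cre plus and 177 Cre minus barcodes gated as blood endothelial (BEC), of 1777 and 1549 barcodes that passed the filters. The Cre plus group was the genotype Ifngr1iProx1 and the Cre minus group the genotype Ifngr1WT. Both groups carried intradermal tumors of the melanoma line B16F10-OVALBUMIN/VEGFC, a mouse line whose name gives ovalbumin and the lymphatic growth factor VEGF-C, from 500000 implanted cells. At day 15, 3 tumors of each genotype were pooled, and cells negative for DAPI, positive for CD31 and negative for CD45 were sorted into 1 droplet 3′ library per genotype. The labels give the Cre by the name Prox1 alone, and neither its construct, an inducing agent, nor the part of Ifngr1 it removes. With 1 pooled library per genotype there is no replicate, so no difference was tested. Intervals are 95% and cover the counting of UMIs or barcodes, not differences between animals, tumors or sorts. Those on summed UMIs also leave out the spread between barcodes of a class.

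Lymphatic endothelium arises in the embryo mainly from venous endothelium. In mice Sox18 and Nr2f2 act together on the Prox1 gene, and Prox1 then sets the lymphatic program and is needed to keep it in the adult. Maf and Tbx1 belong to the same program in lymphatic vessels, Maf in the patterning of the lymphatic network and Tbx1 upstream of Flt4, the receptor of VEGF-C. The factors differ in how far they reach beyond lymphatic cells. Sox18 is made by many growing blood vessels, Nr2f2 by veins, mural cells and fibroblasts, and Maf by macrophages.

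On the mm10 build with the GENCODE M21 annotation, Prox1 (ENSMUSG00000010175) lies at chr1:190118035-190170714, Sox18 (ENSMUSG00000046470) at chr2:181669836-181671640, Nr2f2 (ENSMUSG00000030551) at chr7:70351944-70366735, Maf (ENSMUSG00000055435) at chr8:115682942-115707794 and Tbx1 (ENSMUSG00000009097) at chr16:18580979-18590671. All 5 are protein-coding and on the minus strand. The 250 bases upstream of the start nearest to the annotated 5′ end are shown for the 3 of them found in the promoter table, as the stretches where these genes begin. The sequences are from RefSeq on GRCm38.p6, 5′ to 3′ on the minus strand, and capitals mark a match to the TATA box letters TATAAA, here on the opposite strand as TTTATA. The windows are chr1:190170828-190171077 for Prox1, chr7:70366747-70366996 for Nr2f2 and chr16:18590672-18590921 for Tbx1.
Prox1: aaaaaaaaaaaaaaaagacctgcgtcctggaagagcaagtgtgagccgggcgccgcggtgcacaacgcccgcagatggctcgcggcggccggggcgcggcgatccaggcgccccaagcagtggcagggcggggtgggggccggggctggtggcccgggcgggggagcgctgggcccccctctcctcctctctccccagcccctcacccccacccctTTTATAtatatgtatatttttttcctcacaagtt
Nr2f2: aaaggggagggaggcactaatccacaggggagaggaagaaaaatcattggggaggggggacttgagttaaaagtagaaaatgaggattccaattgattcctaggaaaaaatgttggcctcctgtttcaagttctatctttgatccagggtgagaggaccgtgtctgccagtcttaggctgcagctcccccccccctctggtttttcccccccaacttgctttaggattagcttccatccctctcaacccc
Tbx1: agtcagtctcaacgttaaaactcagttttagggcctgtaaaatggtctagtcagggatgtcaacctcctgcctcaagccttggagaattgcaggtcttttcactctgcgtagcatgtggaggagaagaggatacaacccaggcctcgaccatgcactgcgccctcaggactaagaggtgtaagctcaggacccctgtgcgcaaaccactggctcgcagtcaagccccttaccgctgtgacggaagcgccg

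The Prox1 window held 20 CpG and 64.8% G and C, the Nr2f2 window 1 CpG and 50%, and the Tbx1 window 10 CpG and 54.4%, against medians of 6 CpG and 52.4% over 32851 windows of 250 bases. The search covered both strands for TATAAA, a Sox site (AACAAT), a nuclear receptor half-site (AGGTCA), a T-box half-site (GGTGTGA) and a Maf half-site (TGCTGA). These letters stand in 12.4%, 9.42%, 14.0%, 3.33% and 16.1% of all windows, in that order. The match in the Prox1 window, from 34 to 29 bases before the start, was the only one among the 3 windows. Antisense or overlapping genes share the loci of Prox1 (Gm28172 and Prox1os), Nr2f2 (B130024G19Rik) and Maf (Gm15655). The partners were counted as separate genes. No source used here gives the strand setting of the counting, and how reads from opposite strands were assigned was not checked. In LEC barcodes these 4 genes had 23, 67, 570 and 411 UMIs in Cre plus and 1, 5, 49 and 43 UMIs in Cre minus, against 8322 and 600 UMIs of Nr2f2.

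The 2 libraries hold 66704257 UMIs in 2491 barcodes for Cre plus and 76967583 UMIs in 2502 barcodes for Cre minus, and they share 1 barcode sequence. LEC barcodes were gated on Lyve1, Mmrn1 and Ccl21a, and BEC barcodes on Flt1, Plvap and Emcn, so that no member took part in the gate. Genes outside the gate followed its names. Pdpn, a lymphatic surface glycoprotein, stood at 181 CPM (UMIs per 1000000 UMIs of the class) in LEC and 3.04 in BEC barcodes of Cre plus, and at 218 CPM in LEC and none of the UMIs in BEC barcodes of Cre minus. Esm1, a gene of blood vessel tip cells, stood at 3.41 CPM in LEC and 1384 in BEC barcodes of Cre plus, and at 1.82 and 1392 CPM in Cre minus. LEC barcodes differed between the libraries in depth, with a median of 17240 UMIs in the Cre plus library and 5748 in Cre minus. Of them 60.2% in Cre plus and 19.1% in Cre minus were Malat1-rich, that is, Malat1, an RNA that stays in the nucleus, gave 0.1% or more of their UMIs. In BEC barcodes the medians were 16890 and 11360 UMIs, and 81.2% and 72.3% were Malat1-rich. Ifngr1, the targeted gene, was read at 29.1 CPM in Cre plus LEC against 43.7 in Cre minus LEC, and at 183 and 169 CPM in BEC barcodes. In Malat1-rich LEC barcodes it was at 32.0 CPM in Cre plus and 73.7 in Cre minus, a log2 ratio of -1.20 [-1.62, -0.77], against -0.59 [-0.95, -0.21] over all LEC barcodes. Since the deleted part is not given, a 3′ count may lie outside it and does not check the genotype.

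LEC barcodes held the RNA of all 5 factors, and BEC barcodes in the main that of Sox18 and Nr2f2. In Cre plus 4 of the 5 factors were more than 2-fold higher in LEC than in BEC barcodes and none was more than 2-fold lower, where 11.6% of 11540 measured genes were higher and 8.59% lower by that much. In Cre minus 4 were higher and 1, Sox18, was lower, where 7.52% of 8360 genes were higher and 16.7% lower. Measured means at least 50 UMIs over both classes, a minimum that all 5 factors passed in both libraries. The median log2 ratio of all measured genes was 0.13 in Cre plus and -0.22 in Cre minus.

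**Figure D1:**
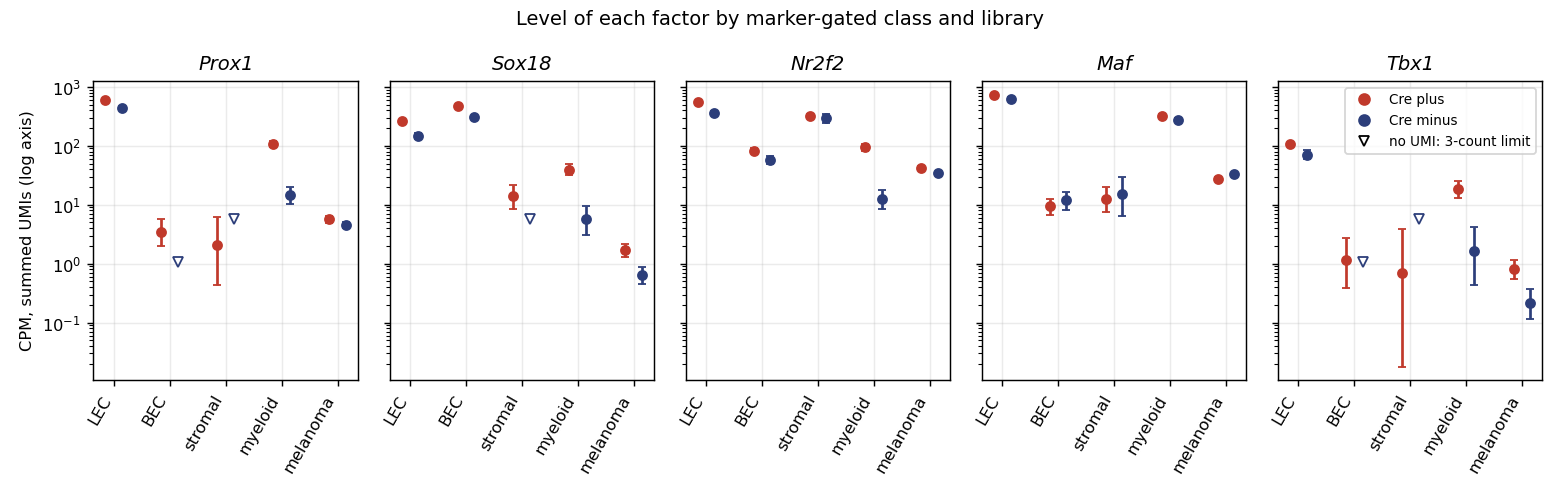
CPM of each factor (log axis) in LEC, BEC, stromal, myeloid and melanoma barcodes of the Cre plus (red) and Cre minus (blue) library, with exact Poisson 95% intervals; open triangles mark classes with no UMI at the limit of 3 counts. Prox1 and Tbx1 are highest in LEC barcodes, Sox18 in BEC barcodes, while Nr2f2 is also high in stromal and Maf in myeloid barcodes.

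Sox18, which acts on the Prox1 gene, was the one factor with more RNA in blood than in lymphatic barcodes. It stood at 263 CPM [255, 271] in LEC and 469 [449, 490.4] in BEC barcodes of Cre plus. In Cre minus it stood at 148 CPM [129.5, 167] in LEC and 303 [283, 325] in BEC barcodes. The log2 ratio of LEC over BEC was -0.84 [-0.91, -0.76] in Cre plus and -1.04 [-1.25, -0.83] in Cre minus, so both libraries put it lower in LEC, on either side of the 2-fold line. It passed 2-fold in Cre plus as the mean over barcodes, after thinning or in Malat1-poor barcodes, and fell short of it in Cre minus under 9 of 18 alternative settings. Over all 18 the Cre minus ratio lay between -1.78 and -0.47. After each barcode was thinned to 2000 UMIs, Sox18 had a UMI in 28.2% of 634 LEC and 48.4% of 159 BEC barcodes of Cre plus, and in 12.8% of 172 LEC and 32.7% of 171 BEC barcodes of Cre minus. In melanoma barcodes the thinned share was 0.62% in Cre plus and 0.36% in Cre minus.

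Nr2f2, the orphan nuclear receptor COUP-TFII that marks venous endothelium and partners Prox1, was present in both endothelial classes and higher in LEC. Its level was 545 CPM [534, 557] in LEC and 82.6 [74.2, 91.6] in BEC barcodes of Cre plus. In Cre minus it was 364 CPM [336, 395] in LEC and 57.6 [49.1, 67.2] in BEC barcodes. The log2 ratio was 2.72 [2.57, 2.88] in Cre plus and 2.66 [2.41, 2.92] in Cre minus. The BEC level is above the 42.7 CPM of Cre plus and 34.2 CPM of Cre minus melanoma barcodes. After thinning, 11.3% of the Cre plus and 12.3% of the Cre minus BEC barcodes had a UMI, against 46.4% and 22.1% in LEC barcodes and 5.17% and 5.64% in melanoma barcodes.

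Prox1, the factor that sets lymphatic identity, was almost absent from BEC barcodes. Cre plus LEC barcodes held 9036 UMIs, or 592 CPM [579.7, 604], and BEC barcodes 15 UMIs, or 3.51 CPM [1.96, 5.79], of which 11 were in a single barcode. Cre minus LEC barcodes held 713 UMIs, or 433 CPM [402, 466], and BEC barcodes none, which allows up to 1.07 CPM at 3 counts. The log2 ratio was 7.40 [6.68, 8.24] in Cre plus, and Prox1 was at least 403-fold higher in LEC than in BEC barcodes of Cre minus. Melanoma barcodes held 5.65 CPM in the Cre plus library and 4.49 CPM in the Cre minus library. The source of the UMIs in melanoma and BEC barcodes was not tested. With all UMIs, 5 of 170 BEC barcodes of Cre plus and none of 177 of Cre minus had a Prox1 UMI. Thinned to 2000 UMIs, none of 159 and none of 171 BEC barcodes had one (exact Clopper-Pearson upper limits of 2.29% and 2.13% at that depth), against 45.7% of LEC barcodes in the Cre plus library and 20.3% in the Cre minus library. The melanoma share was 1.03% in Cre plus and 1.44% in Cre minus.

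Maf, a basic leucine zipper factor, was high in LEC barcodes of both libraries. It stood at 724 CPM [710.4, 738] in LEC and 9.36 [6.68, 12.7] in BEC barcodes of Cre plus. In Cre minus it stood at 628 CPM [591, 668] in LEC and 11.8 [8.13, 16.6] in BEC barcodes. The log2 ratio was 6.27 [5.83, 6.76] in Cre plus and 5.73 [5.23, 6.28] in Cre minus. The BEC levels were below those of melanoma barcodes, 27.7 CPM in the Cre plus library and 32.9 CPM in the Cre minus library. After thinning, Maf had a UMI in 64.2% of Cre plus and 45.3% of Cre minus LEC barcodes.

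Tbx1, a T-box factor that acts on Flt4 in lymphatic endothelium, was likewise read in LEC barcodes and nearly absent from BEC barcodes. Cre plus LEC barcodes held 1654 UMIs, or 108 CPM [103, 114], and BEC barcodes 5 UMIs, or 1.17 CPM [0.38, 2.73]. Cre minus LEC barcodes held 117 UMIs, or 71.0 CPM [58.7, 85.1], and BEC barcodes none. The log2 ratio was 6.53 [5.31, 8.16] in Cre plus, and Tbx1 was at least 66.2-fold higher in LEC than in BEC barcodes of Cre minus. The 5 BEC UMIs came from 5 barcodes.

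**Figure D2:**
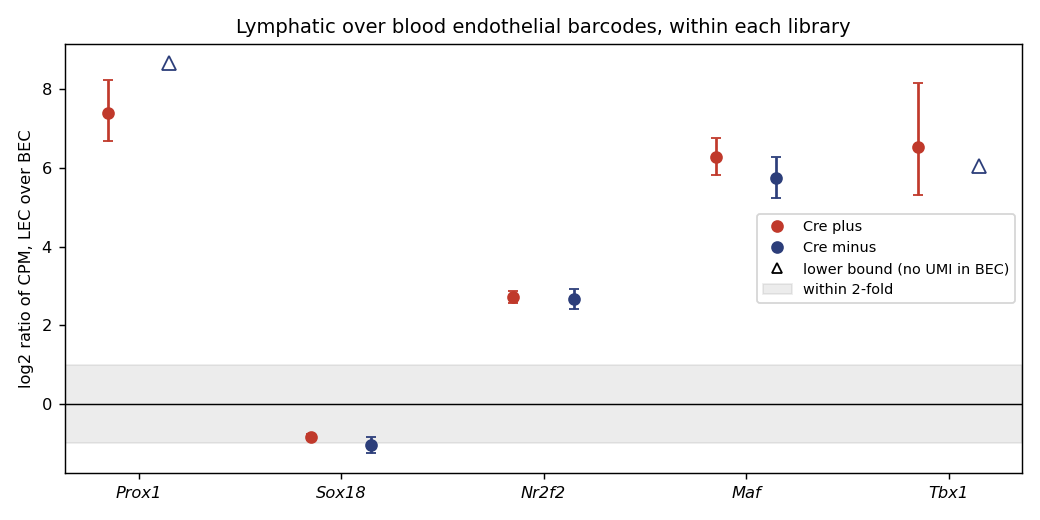
Log2 ratio of CPM in LEC over BEC barcodes for each factor in the Cre plus (red) and Cre minus (blue) library, with exact 95% counting intervals; open triangles are lower bounds where BEC barcodes had no UMI, and grey marks ratios within 2-fold. Prox1, Nr2f2, Maf and Tbx1 lie above the grey band and Sox18 lies below 0 in both libraries.

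Outside endothelium the factors parted. Nr2f2 stood at 319 CPM [291, 350] in the 31 stromal barcodes of Cre plus and 292 CPM [248, 342] in the 20 of Cre minus, which were gated on collagen, Pdgfrb and Rgs5 RNA, with a UMI in 26 and 14 of them. Maf stood at 326 CPM in the 62 myeloid barcodes of Cre plus and 270.4 CPM in the 76 of Cre minus. Some myeloid barcodes also held lymphatic RNA, namely 14 in Cre plus and 8 in Cre minus with 2 or more lymphatic-panel UMIs per 10000. Without these, a choice made after seeing the data, Maf was at 270.2 CPM [243, 299] in the Cre plus library and 219.7 CPM [199.9, 241] in Cre minus. Prox1 in myeloid barcodes was at 108 CPM in the Cre plus library and 14.5 CPM in the Cre minus library with them, and at 2.97 and 0.49 CPM without them. Of all Prox1 UMIs, 89.1% in the Cre plus library and 60.3% in the Cre minus library lay in LEC barcodes, and of all Sox18 UMIs 29.6% and 53.9% lay in BEC barcodes. The 507 melanoma barcodes of Cre plus held 13.7% of Nr2f2, 7.40% of Maf and 2.06% of Prox1 UMIs. The 861 of Cre minus held 61.9%, 47.8% and 22.9%, at the melanoma CPM given above, which were below those of LEC barcodes.

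Within LEC barcodes the factors were detected unevenly. The Prox1 count per barcode had quartiles of 0, 7 and 21 UMIs and a maximum of 165 in Cre plus, and a median of 0, an upper quartile of 1 and a maximum of 77 in Cre minus. At 2000 UMIs per barcode, 2 or more factors were found together in 61.5% of 634 Cre plus and 26.7% of 172 Cre minus LEC barcodes. In BEC barcodes the same share was 6.92% of 159 in the Cre plus library and 7.60% of 171 in Cre minus, and no BEC barcode had 3 or more. All 5 factors were found in 11 Cre plus barcodes and 1 Cre minus LEC barcode, and none of them in 16.2% and 40.7%. No factor was found in 44.0% of Cre plus and 60.2% of Cre minus BEC barcodes. Among barcodes with at least 1 factor, the most frequent set was Maf alone in LEC barcodes, with 14.5% in the Cre plus library and 22.7% in the Cre minus library, and Sox18 alone in BEC barcodes, with 41.5% and 25.1%, as shares of all thinned barcodes of the class. Melanoma barcodes had 2 or more factors in 0.83% of Cre plus and 0.36% of Cre minus cases.

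**Figure D3:**
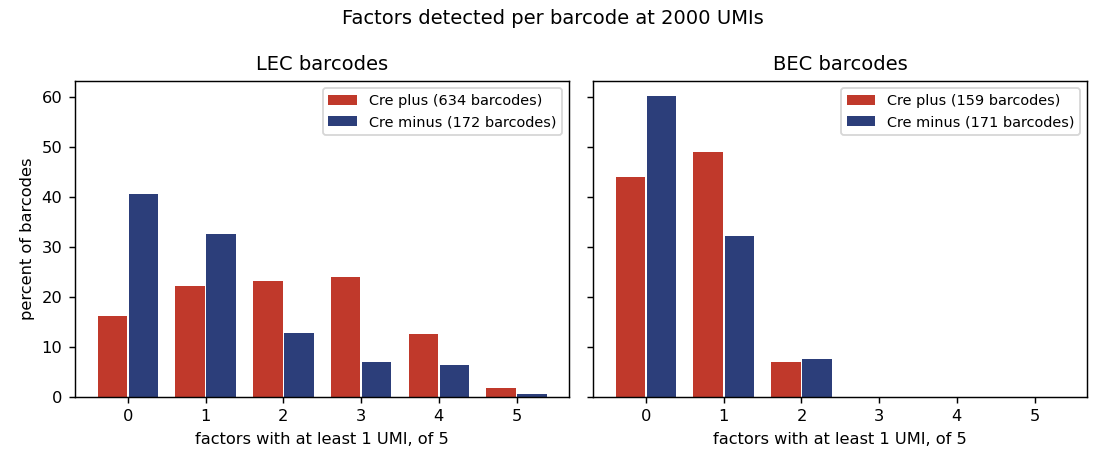
Percent of LEC (left) and BEC (right) barcodes, each thinned to 2000 UMIs, by the number of factors with at least 1 UMI, for Cre plus (red) and Cre minus (blue). LEC barcodes reach 5 factors, whereas BEC barcodes stop at 2, and 40.7% of Cre minus LEC barcodes have none against 16.2% in Cre plus. The libraries also differ in the share of Malat1-rich LEC barcodes.

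Where a thinned LEC barcode had a Prox1 UMI, the summed levels of the other factors were higher over all LEC barcodes. This was not particular to the factors. In Cre plus 290 barcodes with and 344 without a Prox1 UMI gave log2 ratios of 0.28 for Sox18, 0.34 for Nr2f2, 0.26 for Maf and 0.43 for Tbx1. In Cre minus 35 barcodes with and 137 without gave 1.70 for Sox18, 2.20 for Nr2f2, 1.14 for Maf and 2.84 for Tbx1. The lymphatic genes Flt4, Lyve1 and Pdpn had ratios of 0.30, 0.16 and 0.07 [-0.04, 0.18] in Cre plus. Their ratios in Cre minus were 1.33, 1.18 and 0.31. Barcodes with a Prox1 UMI were deeper, with medians of 28650 against 9702 UMIs in Cre plus and 14480 against 5164 in Cre minus. Of those with a Prox1 UMI, 266 of the 290 in Cre plus and 24 of the 35 in Cre minus were Malat1-rich. Within Malat1-rich barcodes of Cre plus the ratios were 0.04 [-0.06, 0.15] for Sox18, 0.06 [-0.01, 0.13] for Nr2f2, 0.07 for Maf and 0.20 for Tbx1. In those of Cre minus, 24 against 9 barcodes, they were 0.42 [-0.14, 1.02], 1.05, 1.14 and 1.20 in the same order. Flt4, Lyve1 and Pdpn had 0.16, 0.16 and -0.06 [-0.18, 0.07] in the Malat1-rich barcodes of Cre plus. In those of Cre minus they had 0.82, 1.03 and -0.30 [-0.75, 0.17]. Within Malat1-poor barcodes of Cre plus, 24 against 219, the ratios were 1.14 for Sox18, 0.54 for both Nr2f2 and Maf, and -0.56 [-1.67, 0.39] for Tbx1, which had 10 and 90 UMIs. In those of Cre minus, 11 against 128 barcodes, they were 2.61 for Sox18, 1.93 for Nr2f2, 1.35 for Maf and 2.77 [0.96, 4.49] for Tbx1, which had 6 and 8 UMIs.

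The Malat1 strata set the level of Prox1 apart from that of Maf. Prox1 stood at 120 CPM in Malat1-poor and 674 CPM in Malat1-rich LEC barcodes of Cre plus, a log2 ratio of -2.49 [-2.67, -2.31]. In Cre minus it stood at 99.5 CPM in Malat1-poor and 848 CPM in Malat1-rich barcodes, a log2 ratio of -3.09 [-3.43, -2.77]. Maf stood at 462 CPM in Malat1-poor and 769 CPM in Malat1-rich barcodes of Cre plus, and at 496 and 792 CPM in the Cre minus library, with log2 ratios of -0.73 [-0.83, -0.64] and -0.67 [-0.85, -0.49]. All measured genes had a median ratio of -0.81 in Cre plus and -0.71 in Cre minus, close to the values of Maf. Nr2f2 had ratios of -1.31 in Cre plus and -2.29 in Cre minus, Tbx1 of -1.39 and -3.20, and Sox18 of -0.75 and -1.43. Thus 3 of the 5 factors in Cre plus and 4 in Cre minus were more than 2-fold lower in Malat1-poor barcodes, where 43.4% and 43.3% of all measured genes were lower and 0.494% and 7.64% higher. The part of depth in these differences was not tested.

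**Figure D4:**
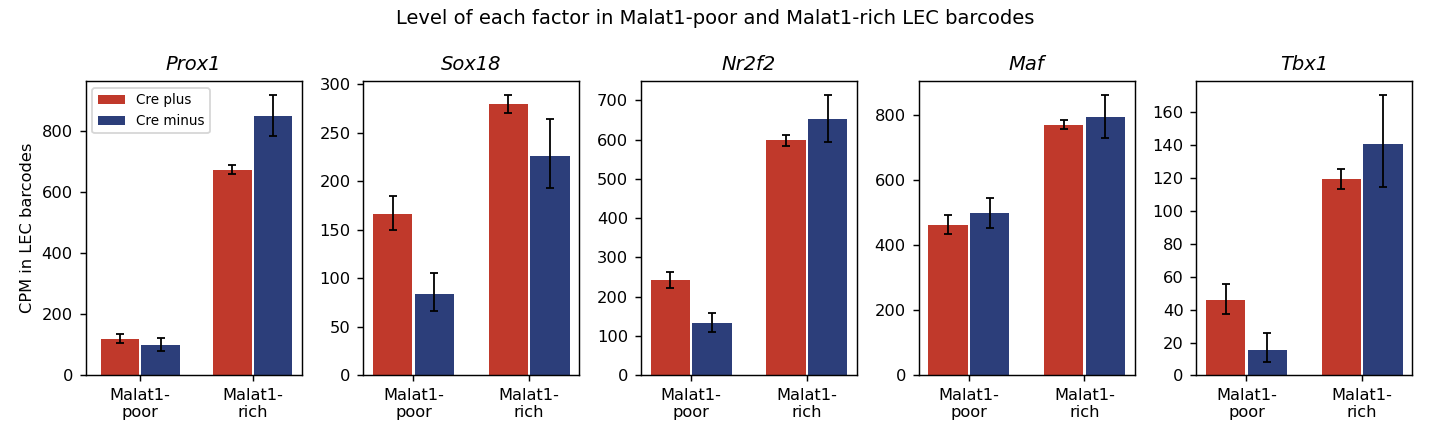
CPM of each factor in Malat1-poor and Malat1-rich LEC barcodes of the Cre plus (red) and Cre minus (blue) library, with exact Poisson 95% intervals. Prox1 is at 120 and 99.5 CPM in Malat1-poor barcodes and at 674 and 848 CPM in Malat1-rich ones, while Maf is at 462 and 496 CPM in Malat1-poor barcodes.

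Other splits of LEC barcodes were made after the data were seen, with each barcode thinned to 5000 UMIs for the split. Barcodes with 2 or more UMIs of the mitotic genes Mki67, Top2a, Cenpf and Ccnb1 had a lower CPM of each factor. The interval for Tbx1 in Cre plus spans 0. CPM is a share of the UMIs of a barcode group, and no all-gene median is given for this split or for those on Lyve1 and Foxc2 below. Counts per barcode were not compared. In Cre plus, with 107 such barcodes and 417 others, the log2 ratios ran from -0.34 for Nr2f2 to -0.15 [-0.31, 0.02] for Tbx1. In Cre minus, with 20 and 83 barcodes, they ran from -1.73 for Tbx1 to -0.90 for Sox18. Barcodes with a UMI of Lyve1, a marker of lymphatic capillaries, had log2 ratios over those without of 0.41 for Maf, 0.37 for Nr2f2, 0.25 [0.08, 0.42] for Sox18, 0.07 [-0.04, 0.17] for Prox1 and 0.00 [-0.24, 0.25] for Tbx1 in Cre plus, with 472 and 52 barcodes. In Cre minus, with 87 and 16 barcodes, they were 0.47 for Maf, 1.40 for Nr2f2, 0.83 [0.10, 1.66] for Sox18, 0.80 [0.38, 1.24] for Prox1 and 0.47 [-0.46, 1.58] for Tbx1. Lyve1 is also a marker of the LEC gate, so this split is not independent of the gate. Within Malat1-rich barcodes of Cre plus, 348 against 29, the Lyve1 split gave 0.32 for Maf, 0.38 for Nr2f2 and 0.39 [0.19, 0.59] for Sox18. Prox1 there had -0.13 [-0.24, -0.02] and Tbx1 -0.21 [-0.46, 0.05]. Foxc2, a factor of collecting vessels and valves, had a UMI in 12 Cre plus barcodes. Over the other 512, these had ratios of 0.42 [0.25, 0.58] for Prox1, 0.45 [0.27, 0.62] for Nr2f2, 0.26 [0.10, 0.42] for Maf, 0.23 [-0.21, 0.64] for Tbx1 and -0.28 [-0.61, 0.03] for Sox18. Within Malat1-rich barcodes, 11 against 366, the Foxc2 split gave 0.29 [0.12, 0.45] for Prox1, 0.33 [0.15, 0.51] for Nr2f2 and 0.15 [-0.02, 0.31] for Maf. Tbx1 there had 0.10 [-0.35, 0.52] and Sox18 -0.32 [-0.655, -0.01].

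Between the genotypes no factor differed by more than 2-fold in LEC barcodes. Of 11076 measured genes, 8.57% were higher and 0.885% lower by that much in Cre plus, and the median log2 ratio of Cre plus over Cre minus was 0.29. With the levels given above, Sox18 was higher in Cre plus by 0.83 [0.65, 1.03] on the log2 scale, Tbx1 by 0.61 [0.34, 0.89], Nr2f2 by 0.58 [0.46, 0.70], Prox1 by 0.45 [0.34, 0.56] and Maf by 0.20 [0.11, 0.30]. All 5 intervals lie above 0, and that of Maf includes the all-gene median, but they cover counting alone and not the spread between barcodes.

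These genotype ratios moved with which barcodes carried the weight. Among Malat1-rich LEC barcodes, 405 in the Cre plus library and 34 in Cre minus, Prox1 was at 674 CPM in the Cre plus library and 848 in Cre minus, a log2 ratio of -0.33 [-0.45, -0.21]. In the same barcodes Sox18 had 0.30 [0.08, 0.54], Nr2f2 -0.13 [-0.26, 0.01], Maf -0.04 [-0.16, 0.08] and Tbx1 -0.24 [-0.53, 0.07], none past 2-fold, where 4.86% of all genes were higher and 4.09% lower. Among Malat1-poor barcodes, 268 in the Cre plus library and 144 in Cre minus, the ratios were 0.27 [-0.08, 0.63] for Prox1, 0.98 [0.63, 1.36] for Sox18, 0.86 [0.57, 1.15] for Nr2f2, -0.10 [-0.26, 0.06] for Maf and 1.58 [0.76, 2.50] for Tbx1, the last from 103 and 14 UMIs. Tbx1 alone passed 2-fold there, where 7.12% of all genes were higher and 0.745% lower. So only Sox18 kept a counting interval above 0 in both strata.

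The gate and the weighting of barcodes bore on the same ratios. With Ccl21a left out of the lymphatic panel, 324 Cre plus and 56 Cre minus barcodes were LEC, and the log2 ratios were 0.04 for Prox1, 0.42 for Sox18, 0.07 for Nr2f2, -0.07 for Maf and -0.07 for Tbx1. With every barcode thinned to 2000 UMIs they were 1.01 for Prox1, 1.23 for Sox18, 1.23 for Nr2f2, 0.48 for Maf and 1.19 for Tbx1, and 4 of 5 passed 2-fold. In Cre minus a few barcodes held much of the signal: the 5 with the most UMIs held 34.5% of Prox1, 43.6% of Sox18, 45.3% of Nr2f2, 30.9% of Maf and 48.7% of Tbx1, against 4.69% to 6.47% in Cre plus. Without those 5 barcodes of each library, 3 of 5 factors passed 2-fold, with ratios of 1.39 for Sox18, 1.33 for Tbx1, 1.18 for Nr2f2, 0.81 for Prox1 and 0.46 for Maf. All 5 of these ratios lie above the counting intervals given for all LEC barcodes. No share or median of all genes is given for these gates and weightings, so the counts cannot be read as particular to the factors. Genotype and library cannot be told apart here.

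**Figure D5:**
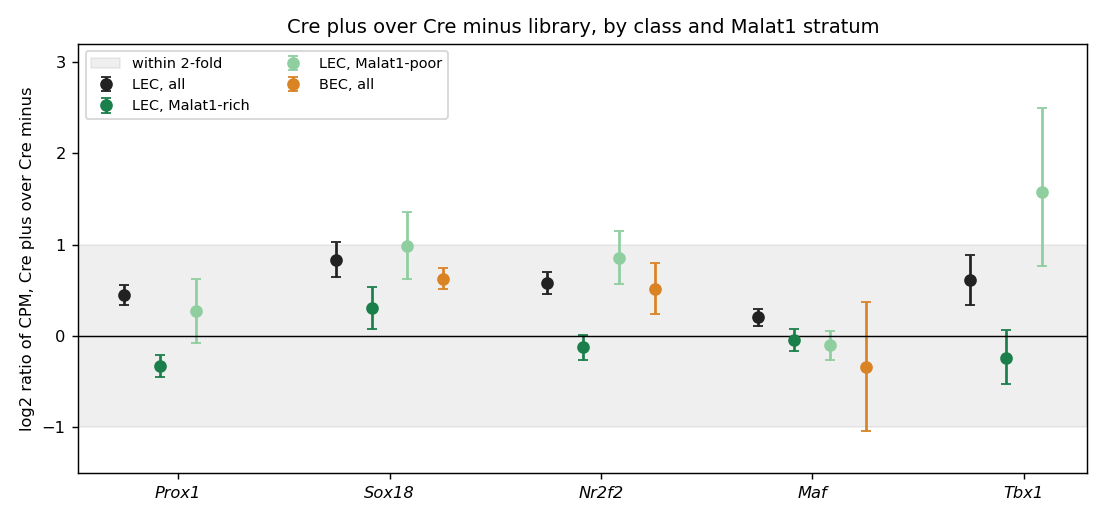
Log2 ratio of CPM in the Cre plus over the Cre minus library for each factor, with exact 95% counting intervals, in all LEC, Malat1-rich LEC, Malat1-poor LEC and all BEC barcodes; Prox1 and Tbx1 had too few BEC UMIs to be shown. Prox1 is at 0.45 over all LEC barcodes and at -0.33 in Malat1-rich ones, and Sox18 is above 0 in each.

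In BEC barcodes 3 of the 5 factors had at least 50 UMIs and none of the 3 differed by more than 2-fold between genotypes, where 2.59% of 9463 genes were higher and 1.14% lower in Cre plus. Sox18 was higher in Cre plus by 0.63 [0.51, 0.75] on the log2 scale, at 469 against 303 CPM. Nr2f2 was higher by 0.52 [0.25, 0.80], at 82.6 against 57.6 CPM. Maf had a ratio of -0.34 [-1.04, 0.37] from 40 UMIs in the Cre plus library and 33 in Cre minus. The median of all genes was -0.02. Over the alternative settings Nr2f2 ran from 0.17 after thinning to 2.34 in Malat1-poor barcodes alone, the last from 7 and 2 UMIs and thus under the minimum of 50, and Maf from -1.18 to 0.41. Over all barcodes, Sox18 and Nr2f2 thus had intervals above 0 in LEC and BEC alike.

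The paralogs of the factors had other patterns in the same barcodes. Of 15 listed, 11 were measured in Cre plus, with 1 (Nr2f1) more than 2-fold higher and 4 lower in LEC than in BEC barcodes, and 6 in Cre minus, with 1 (Maff) higher and 3 lower. Of all measured genes 11.6% were higher and 8.59% lower in Cre plus, and 7.52% and 16.7% in Cre minus. The small Maf factors Mafg and Mafk stood at 62.2 and 13.0 CPM in Cre plus LEC, against 38.4 and 14.3 CPM in Cre plus BEC, within 2-fold. Maff was at 32.9 CPM in LEC and 45.4 in BEC barcodes of Cre plus but at 75.9 and 35.4 CPM in Cre minus, and in LEC barcodes it was lower in Cre plus by a log2 ratio of -1.21 [-1.49, -0.91]. Sox17, the arterial SoxF factor, was at 0.52 CPM in LEC and 92.1 in BEC barcodes of Cre plus and at 0.61 CPM, or 1 UMI, and 62.3 CPM in Cre minus. Sox7, the third SoxF factor, was at 42.0 CPM in LEC and 83.0 in BEC barcodes of Cre plus and at 21.2 and 54.8 CPM in Cre minus, so all 3 SoxF genes were lower in LEC. Nr2f1 and Nr2f6, kin of Nr2f2, were at 7.14 and 58.0 CPM in Cre plus LEC, against 3.04 and 60.6 CPM in Cre plus BEC. Prox2 had 55 UMIs in LEC and 15 in BEC barcodes of Cre plus, a log2 ratio of 0.04 [-0.81, 0.97]. The T-box genes Tbx2 and Tbx3 were read in BEC rather than LEC barcodes, with 15 and 0 UMIs in LEC against 61 and 76 UMIs in BEC barcodes of Cre plus.

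Of 20 factors listed as partner and early transcription factors, 19 were measured in Cre plus, where 11.6% of all genes were higher and 8.59% lower. The list also holds Tbx2, Tbx3 and Nr2f6, taken above as paralogs, and no link of its members to the 5 factors was tested. In LEC against BEC barcodes 2 of the 19 were more than 2-fold higher and 10 lower, with a median log2 ratio of -1.05. The higher ones were the forkhead factors Foxc2, at 1.45 [0.40, 2.71], and Foxp2, at 6.38 [3.89, 11.69] from 298 LEC UMIs and 1 BEC UMI. In Cre minus 13 were measured, with none higher and 7 lower, and a median of -1.15, where 7.52% of all genes were higher and 16.7% lower. The zinc finger factor Mecom had 31 UMIs in LEC and 2124 in BEC barcodes of Cre plus and 1 and 1851 for Cre minus, giving log2 ratios of -7.93 [-8.50, -7.42] and -10.09 [-15.40, -7.61]. Epas1, the hypoxia factor HIF-2α, stood at 11.9 CPM in LEC and 300.5 in BEC barcodes of Cre plus and at 18.8 and 306 CPM in Cre minus. Prdm1, a repressor, had ratios of -4.58 in Cre plus and -7.28 [-12.59, -4.79] in Cre minus, where LEC barcodes held 1 UMI. Id1 and Id3, inhibitors of helix-loop-helix factors and targets of BMP signals, had ratios of -1.45 and -1.94 in Cre plus and -2.40 and -1.81 in Cre minus. Between genotypes in LEC barcodes 5 of 16 measured members of this list were more than 2-fold higher in Cre plus and none lower. Of all measured genes 8.57% were higher and 0.885% lower by that much. The 5 were Foxc2, Klf2, Klf4, Prdm1 and Id1. Foxc2 had 78 UMIs in Cre plus against 3 in Cre minus, and its interval includes 0. Among Malat1-rich LEC barcodes 1 of 15 was higher, where 4.86% of all genes were. In BEC barcodes 4 of 16 were higher and none lower, where 2.59% of all genes were higher and 1.14% lower. Klf2 and Klf4 were among these 4, at 1.23 and 1.28. Prdm1 and Id1 stayed within 2-fold there, and Foxc2 had fewer than 50 UMIs. Id1 was at 167 CPM in Cre plus LEC against 57.1 in Cre minus LEC, a log2 ratio of 1.55 [1.25, 1.86], and Prdm1 had 49 UMIs against 1, a log2 ratio of 2.40 [-0.14, 7.74].

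The 10 pan-endothelial factors were all measured in Cre plus, where 11.6% of all genes were higher and 8.59% lower in LEC past 2-fold. Of the 10 factors, 1 was higher and 1 lower by that much. The higher one was Lmo2, an adaptor of GATA and helix-loop-helix factors, at 404 CPM in LEC and 81.9 in BEC barcodes of Cre plus and at 314 and 56.2 CPM in Cre minus. The lower one was the ETS factor Fli1, with log2 ratios of -1.005 [-1.09, -0.92] in Cre plus and -1.66 [-1.85, -1.46] in Cre minus. The Cre minus library had 9 measured members, 1 of them higher and 5 lower. There 7.52% of all measured genes were higher and 16.7% lower, with a median log2 ratio of -0.22. Of 12 blood and arterial factors, 6 were measured in Cre plus and 5 in Cre minus, with 4 and 3 lower in LEC and none higher. Besides Sox17 these included Meox2, at -3.38 [-3.76, -3.01] in the Cre plus library and -5.05 [-7.34, -3.47] in Cre minus, and the Notch target Hey1, at -2.38 and -2.25.

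Of 14 genes known as targets of the 5 factors, 13 were measured in Cre plus, with 5 higher and 4 lower in LEC than in BEC barcodes, and 11 in Cre minus, with 3 higher and 4 lower. The all-gene shares were 11.6% higher and 8.59% lower in Cre plus, and 7.52% and 16.7% in Cre minus. Flt4, a target of Prox1 and Tbx1, had 10036 UMIs in LEC and 703 in BEC barcodes of Cre plus and 1045 and 559 for Cre minus, giving log2 ratios of 1.999 [1.89, 2.11] and 1.67 [1.52, 1.82]. Pdpn, another Prox1 target, is given above. The lower ones included Nrp1, a receptor of VEGF and semaphorins that Nr2f2 is known to repress in veins, with 2 UMIs in LEC in either library against 4224 in Cre plus BEC and 3760 in Cre minus BEC barcodes. The arterial ligands Efnb2 and Dll4 were lower by log2 ratios of -2.24 and -2.10 in Cre plus and -3.63 and -2.50 in Cre minus. Between genotypes in LEC barcodes none of 11 measured targets passed 2-fold, where 8.57% of all genes were higher and 0.885% lower in Cre plus. Flt4 had a ratio of 0.05 [-0.04, 0.14].

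The genes whose levels ran most alike to each factor were found over 10 points, LEC, BEC, melanoma, myeloid and stromal barcodes of each library, as Pearson's r of log2(CPM + 1) among 9296 genes. The points share libraries and r is a description. Prox1 was most like Slc45a3 (0.99), Ggct (0.98) and Reln (0.98), where Reln encodes the secreted protein reelin. Sox18 was most like Cdh5 (0.99), the VE-cadherin gene of all endothelium, Shank3 (0.99) and Sh3bp5 (0.99). Nr2f2 was most like Map3k6 (0.97), Shc1 (0.97) and Nlgn2 (0.96). Maf was most like Gm15655 (0.99), the gene that lies antisense within its locus, Fat3 (0.98) and Mrc1 (0.98), the mannose receptor gene of macrophages and lymphatic endothelium. Tbx1 was most like Sh3gl3 (0.99), Reln (0.99) and 5330416C01Rik (0.99). Among the members, Prox1 and Tbx1 had an r of 0.97, Prox1 and Maf 0.93, Prox1 and Sox18 0.40, and Prox1 and Nr2f2 0.36.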

How the data were processed

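The authors deposited raw UMI counts per gene and barcode from 1 single-cell 3′ library (v3.1) per genotype, as whole numbers per the file headers. Cell Ranger 7.0.0 and mm10 are named, without a role, per the submitters' processing notes. Members and lists were chosen with earlier results of these data known.

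Barcodes with at least 500 genes, under 10% mitochondrial and under 50% haemoglobin UMIs were kept. Each went to its highest marker panel (at least 10 UMIs per 10000 and 2 markers), and LEC and BEC also needed a ratio of 4 between their panels. No doublet caller was run. Barcodes with both panels were left out, 54 from Cre plus and 15 from Cre minus, while 325 and 228 had no class. The 2 rows named Ccl21a were summed.

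UMIs were summed per class and scaled to CPM, with exact Poisson, Clopper-Pearson and conditional binomial 95% intervals. Zeros were set to 3 counts for bounds. Ratios were checked on simulated Poisson counts without spread between barcodes, as the intervals assume, so the check does not cover such spread. Past 2-fold was the call, without tests. Listed genes named singly were past 2-fold in both libraries (up to 5 per list) or between genotypes in LEC (up to 2), paralogs had at least 50 UMIs (1 that did is not reported here), and 3 genes most like each member had at least 200. Foxc2, Foxp2, the cycling genes and the genes that check the gate were named outside this rule. Python 3.11.15, numpy 2.4.6, scipy 1.17.1 and pandas 2.3.3 were used. Alternatives changed the gate, filters, scaling, weighting and Malat1 strata.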

Additional observations from a re-analysis of the deposited data

Results flagged for a closer look

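Maf ran opposite ways between genotypes in the 2 endothelial classes, with a log2 ratio of Cre plus over Cre minus of 0.20 in LEC and -0.34 [-1.04, 0.37] in BEC barcodes. This difference was not tested, the BEC value rests on 40 and 33 UMIs, and its interval includes the LEC value. The LEC ratio was below 0 under 4 of 18 alternatives, at -0.04 in Malat1-rich and -0.10 in Malat1-poor barcodes alone, -0.07 without Ccl21a in the panel and -0.06 relative to the median gene.

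Barcodes that the filters left out also held UMIs of the factors. In the 714 such barcodes of Cre plus there were 92 UMIs of Prox1, 31 of Sox18, 90 of Nr2f2, 92 of Maf and 22 of Tbx1. In the 953 of Cre minus there were 42 of Prox1, 31 of Sox18, 144 of Nr2f2, 154 of Maf and 17 of Tbx1. They came to 0.46% to 1.18% of each factor's UMIs in Cre plus and to 1.97% to 8.90% in Cre minus.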

How the results depend on the processing

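No paired analysis was possible because each genotype is 1 library. In LEC over BEC all factors kept their direction wherever a value could be computed, over 18 alternatives in both libraries, and counts past 2-fold were 4 or 5. Between genotypes in LEC, where no factor passed 2-fold, 1 did so (higher) with stricter purity and in Malat1-poor barcodes alone, 2 without cycling barcodes, 3 as the mean over barcodes, 4 after thinning to 2000 UMIs, and 3 without the 5 top barcodes, the last chosen after seeing the data. In BEC 1 of 3, Maf, was lower past 2-fold as the mean over barcodes. For these genotype settings no share of all genes is given, apart from that in Malat1-poor LEC barcodes. The percent of all genes past 2-fold was 20.2, 24.2, 9.45 and 3.73 for LEC over BEC in Cre plus, in Cre minus, and for genotype in LEC and in BEC. It was 23.6, 27.0, 12.3 and 6.36 with at least 20 UMIs, and with at least 200 UMIs 15.7, 4.80 and 1.54 for all but LEC over BEC in Cre minus, which held near 24.0. The causes were not tested. Tbx1 had 117 UMIs in Cre minus LEC barcodes.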
